A study of Mus musculus with 2 samples.

Results

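Transcription factors of the myeloid lineages were followed across the cell types of the fetal mouse liver by droplet-based scRNA-seq. The genes were given as a list of 8 symbols, Spi1, Cebpa, Cebpb, Cebpd, Cebpe, Gfi1, Irf8 and Maf, and were matched by symbol to the gene lists of the libraries, which hold 27998 genes. Of these, 7 were found and Cebpd was not analysed here. The cells came from 1 wild-type C57BL/6 liver at E12.5, a stage counted in embryonic days. After FACS had removed debris, dead cells and doublets, the suspension was run on the 10X Genomics platform as 2 separately processed libraries, which are technical replicates of 1 liver, although the description of the series speaks of 2 suspensions. With 1 liver, no test between samples was possible, and all differences below are descriptions without a p-value.

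The readout is the unique molecular identifier (UMI), a random tag that marks each captured RNA molecule. The UMIs of a gene were summed over the cells of a cell type and divided by all UMIs of those cells to give counts per 1000000 UMIs (CPM) with exact Poisson 95% confidence intervals. Where a pair of values is given, library 1 comes first and library 2 second. Intervals and limits cover counting error only. Since the UMIs mark RNA ends and were not scaled by length, levels are compared between cell types for the same gene and not between genes. The cell types are those of the deposited annotation, namely hematopoietic stem and progenitor cells (HSPC, spelled HPSC in that annotation, 421 cells), granulocytes (G, 287 cells), monocytes and Kupffer cells (Mo/KC, 114 cells), megakaryocytes (Mk, 135 cells), erythroid progenitors (Ery, 1750 cells), erythroblasts (Eryb, 7432 cells), primitive erythroid cells (EryP, 288 cells), endothelial cells (EC, 46 cells) and hepatoblasts (Hepa, 64 cells). The annotation was built by clustering these same cells, so a difference between cell types is not independent of it. All 10 granulocyte markers were highest in G, 10 of 11 Mo/KC markers in Mo/KC, 4 of 5 HSPC markers in HSPC, and all 5 markers each of EC and Hepa in those cells. The 10537 cells held 114707241 UMIs, with medians per cell of 15462 in HSPC, 12715 in G and 13551.5 in Mo/KC. Among the kept cells, 31 barcodes occur in both libraries.

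Myeloid cells arise from progenitors through a small set of DNA-binding proteins that act in combination and at different doses. PU.1, the product of Spi1, is required for granulocytes and macrophages alike, and C/EBPα, the product of Cebpa, opens the step from multipotent progenitor to granulocyte-monocyte progenitor. Downstream, Gfi1 and Cebpe serve neutrophil differentiation and the formation of secondary granules, whereas Irf8 favors monocytes and dendritic cells and Maf belongs to the large Maf factors of macrophages. Cebpb is a further C/EBP factor used in emergency granulopoiesis and in macrophages, and both Cebpa and Cebpb also act in hepatocytes.

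In the GENCODE vM21 annotation of GRCm38, Spi1 lies at chr2:91082390-91115756 on the plus strand, Cebpa at chr7:35119293-35121928 (plus), Cebpb at chr2:167688915-167690418 (plus), Cebpe at chr14:54710360-54712174 (minus), Gfi1 at chr5:107716657-107726036 (minus), Irf8 at chr8:120736358-120756694 (plus) and Maf at chr8:115682942-115707794 (minus). Cebpa, Cebpb, Gfi1, Irf8 and Maf each overlap another annotated gene, for Irf8 on the same strand, and how the counting divided such reads is not given in the sources used here. RefSeq start sites were at hand for 4 of the 7 genes. The 250 bases upstream of the first start site are shown for 3 genes with different patterns, Cebpa (higher in G than in HSPC and found in Hepa), Irf8 (highest in Mo/KC) and Gfi1 (found in HSPC and G and absent from the counts of Mo/KC). Each is written 5′ to 3′ along the strand of its gene, on build GRCm38.p6, and capitals mark matches to the motifs searched. Most of the Gfi1 stretch lies inside the longer GENCODE model of that gene.
Cebpa, chr7:35119043-35119292, plus strand: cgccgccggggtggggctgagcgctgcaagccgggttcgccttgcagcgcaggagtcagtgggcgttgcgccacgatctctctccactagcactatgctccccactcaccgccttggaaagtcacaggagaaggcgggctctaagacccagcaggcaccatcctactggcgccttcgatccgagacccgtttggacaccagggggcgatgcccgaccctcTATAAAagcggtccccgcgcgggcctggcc
Irf8, chr8:120736108-120736357, plus strand: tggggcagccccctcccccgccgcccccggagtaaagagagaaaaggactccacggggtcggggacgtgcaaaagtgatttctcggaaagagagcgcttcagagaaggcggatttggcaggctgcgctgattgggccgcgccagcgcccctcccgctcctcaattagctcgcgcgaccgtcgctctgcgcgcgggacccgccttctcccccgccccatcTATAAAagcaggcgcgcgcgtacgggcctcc
Gfi1, chr5:107725806-107726055, minus strand: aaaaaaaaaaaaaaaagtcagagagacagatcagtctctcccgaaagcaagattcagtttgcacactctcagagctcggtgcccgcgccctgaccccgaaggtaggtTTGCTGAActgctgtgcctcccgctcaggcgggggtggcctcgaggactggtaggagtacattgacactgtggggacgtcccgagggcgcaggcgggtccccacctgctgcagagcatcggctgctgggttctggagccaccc
The motifs were TATAAA for a TATA box, TTGCNNAA for C/EBP factors, AGGAAGT for PU.1 and, for interferon regulatory factors, GAAA followed by any 2 bases and GAAA again, read on both strands. Cebpa and Irf8 each hold TATAAA, at bases 221 to 226 and 220 to 225 of these stretches, and Gfi1 holds a C/EBP match (TTGCTGAA) at bases 108 to 115. Over 32851 RefSeq promoter windows of 300 bases, 13.6% hold TATAAA, 10.8% the C/EBP, 9.35% the PU.1 and 3.44% the interferon regulatory factor motif. These windows add 50 bases after the start site and are longer than the stretches shown. Of the windows searched but not shown, that of Cebpb holds TATAAA at bases 272 to 277, after its start site. The windows at a further start site of Gfi1 and of Irf8 hold no match. A match is a description of these letters and not evidence of binding.

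Spi1 was found throughout the myeloid cells and was highest in Mo/KC. Its level was 320 and 318 CPM in HSPC, 571 and 513 CPM in G, and 712 and 668 CPM in Mo/KC. In both libraries the order was thus HSPC, G, Mo/KC, with steps of 1.70 (95% confidence interval 1.60 to 1.81) and 1.27 (1.18 to 1.37) over both libraries together. Mk followed at 26.3 CPM (19.4 to 35.0) and Ery at 10.9 CPM (9.89 to 12.1), and no other cell type was above 3.03 CPM. Ery lay above Eryb by 3.61 times (3.02 to 4.32), and the cell types below Eryb were not separated from their neighbours. Cells of different depth find a gene at different rates, so cells were also thinned to 3600 UMIs each. This left out 2 HSPC, 21 G and 10 Mo/KC cells below that depth, all from library 1. Over all cell types, 715 kept cells of library 1 and 0 of library 2 lay below it, so the libraries differed in the depth of the cells kept. In thinned cells Spi1 was found in 65.5% (60.9 to 70.2) of HSPC, 84.2% (79.3 to 88.4) of G and 90.6% (83.0 to 95.3) of Mo/KC. Hepa, which should lack the gene and whose median depth was 22346 UMIs, showed it in 0.211% of cells. Without thinning these shares were 96.0%, 96.5%, 96.5% and 1.56%, so that the difference among the 3 myeloid types lay in the number of UMIs per cell. Of all 5860 Spi1 UMIs, 35.8% were in HSPC, 35.0% in G and 18.3% in Mo/KC.

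Free RNA, the RNA of broken cells that enters every droplet, was read from barcodes with 1 to 50 UMIs, where Spi1 made up 56.7 and 42.9 CPM. If free RNA made up 10% of the UMIs of each cell, it would give 290 Spi1 UMIs in Eryb, where 181 were found, and 185 in Ery, where 405 were found. The Spi1 count in Eryb (156 to 209) thus lay below what free RNA would give at that share. The levels in HSPC, G, Mo/KC, Mk and Ery were above it. The share of 10% was assumed. For Irf8 it would give 80.6 UMIs in Eryb, where 26 (17.0 to 38.1) were found. It would give 28.45 for Cebpa (9 found, 4.1 to 17.1), 77.2 for Cebpe (41 found, 29.4 to 55.6) and 17.65 for Gfi1 (5 found, 1.6 to 11.7). Only the intervals of Cebpb and Maf in Eryb included the value for that share. A share of 10% is thus too high for Eryb by the counts of Spi1, Irf8, Cebpa, Cebpe and Gfi1. Spi1 there was not tested at a lower share.

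Of the C/EBP factors, Cebpa was higher in G than in HSPC and was also found in Mo/KC and Hepa. It was at 26.1 and 21.1 CPM in HSPC, at 58.2 and 62.2 CPM in G, and at 63.4 and 29.4 CPM in Mo/KC. HSPC lay below G in both libraries, whereas the Mo/KC values of the libraries differed by 2.16 times (1.30 to 3.66), more than counting error. In library 1, however, 1 Mo/KC cell held 12 of the 43 Cebpa UMIs, and counting intervals do not allow for such a cell. The most in a Mo/KC cell of library 2 was 3 of 26. Over both libraries G exceeded HSPC by 2.54 times (2.06 to 3.13) and Mo/KC exceeded HSPC by 1.86 times (1.38 to 2.48). Mo/KC lay at 1.09 times the level of G in library 1 and at 0.472 times in library 2, so their order was not settled. In Hepa, Cebpa was at 53.1 and 40.7 CPM, from 67 UMIs in 33 of 64 cells. This level, 46.2 CPM (35.8 to 58.7) over both, was not separated from that of G (60.2 CPM, ratio of G to Hepa 1.30, 0.988 to 1.74) or of Mo/KC (44.1 CPM, ratio of Hepa to Mo/KC 1.05, 0.737 to 1.49), and it lay above the 0.667 UMIs that free RNA at 10% would give. Hepa cells held almost no Spi1, with 2 UMIs in 1 cell, so that Cebpa was found there without the other early myeloid factor. No Cebpa UMI was found in 135 Mk cells, which leaves room for UMI-positive cells at up to 2.22%, nor in 46 EC cells, where the limit is 6.52%. Such limits are on cells with a UMI at this depth and not on cells that hold the RNA.

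Cebpb was highest in Mo/KC and exceeded free RNA at 10% in HSPC, G, Mo/KC, Mk, Ery and Hepa but not in Eryb, EryP or EC. Its level was 156 and 112 CPM in HSPC, 293 and 265 CPM in G, and 766 and 619 CPM in Mo/KC. The order HSPC, G, Mo/KC held in each library, with Mo/KC at 5.06 times (4.62 to 5.53) the level of HSPC and 2.45 times (2.25 to 2.67) that of G. In Hepa it was at 51.5 and 28.4 CPM, from 56 UMIs, and 38.6 CPM (29.2 to 50.2) over both, which was not separated from Mk at 37.6 CPM (57.1 and 22.7 CPM). HSPC exceeded Hepa by 3.50 times (2.67 to 4.67). Library 1 was above library 2 beyond counting error in HSPC, Mo/KC, Mk, Ery, Eryb and Hepa, by 1.18 to 2.52 times. The Cebpb level in free RNA differed in the same direction, 137 against 32.7 CPM, and its part in these differences was not tested. With free RNA at 10% subtracted, Cebpb in Hepa was 30.8 CPM. Eryb held 420 Cebpb UMIs, where free RNA at the assumed 10% would give 448. That share is above what the counts of Spi1, Irf8, Cebpa, Cebpe and Gfi1 in Eryb allow, and Cebpb there was not tested at a lower share.

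Cebpe, the factor of secondary granule genes, was close to restricted to G, which held 93.3% of its 2126 UMIs. In G its level was 563 and 485 CPM, with 48.6 and 33.9 CPM in Mo/KC and 2.61 and 1.60 CPM in HSPC. G exceeded Mo/KC by 13.01 times (10.1 to 17.0) and HSPC by 246 times (146 to 451). The counting interval of the 14 Cebpe UMIs in HSPC included the 8.53 that free RNA at 10% would give. The fold of G over HSPC was 628 once free RNA was subtracted. Because that interval includes the amount subtracted, this fold has no upper bound. After thinning, 67.8% (61.7 to 73.3) of G and 11.4% (6.11 to 19.3) of Mo/KC showed the gene. It was found in 0 of 64 Hepa cells, which leaves room for UMI-positive cells at up to 4.69%, and in 0 of 46 EC cells. Mk, EryP, Eryb and Ery lay between 0.540 and 1.12 CPM, and neighbours in that order were not separated.

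Gfi1, a transcriptional repressor of granulocyte progenitors and stem cells, was found in HSPC and G and was at 0 in Mo/KC. Its level was 12.8 and 8.64 CPM in HSPC and 27.0 and 30.1 CPM in G, which put G at 2.64 times (1.94 to 3.61) HSPC. No UMI was found in 114 Mo/KC cells, which leaves room for UMI-positive cells at up to 2.63% and a level of up to 1.92 CPM. Mo/KC was thus at least 5.63-fold lower than HSPC and at least 14.9-fold lower than G, taking a count of 0 at its limit of 3 counts over both libraries. With each library alone these bounds were 2.89 and 2.55 against HSPC and 6.10 and 8.87 against G. HSPC and G together held 179 of the 186 Gfi1 UMIs (38.2% and 58.1%), and the remainder was found in Ery and Eryb, below the level of free RNA at 10%. Mk, EryP, EC and Hepa had none.

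Irf8 was highest in Mo/KC and was the only one of the 6 factors with at least 20 UMIs in HSPC and G together that was lower in G than in HSPC over both libraries. It was at 82.1 and 71.4 CPM in HSPC, 48.1 and 61.2 CPM in G, and 205 and 227 CPM in Mo/KC. Mo/KC exceeded HSPC by 2.82 times (2.45 to 3.25) and G by 3.98 times (3.34 to 4.75) in the same direction in both libraries. The ratio of G to HSPC was 0.586 (0.458 to 0.745) in library 1 and 0.857 (0.679 to 1.08) in library 2, and the interval of library 2 included 1. EC, at 91.6 and 56.5 CPM from 56 UMIs in 27 of 46 cells, was not separated from HSPC or G. After thinning, 46.1% (36.3 to 56.2) of Mo/KC, 14.7% (11.5 to 18.6) of HSPC, 9.06% (5.87 to 13.1) of G and 21.8% (11.2 to 37.1) of EC showed Irf8. In EryP it was found in 0 of 288 cells, which leaves room for UMI-positive cells at up to 1.04% (median depth 6239.5 UMIs). A few HSPC held many UMIs, up to 34 in a cell, whereas 275 of 421 had none.

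Maf was the only member whose highest level lay outside the myeloid cells. EC had 137 and 141 CPM, from 116 UMIs in 36 of 46 cells, which were 53.7% of all Maf UMIs. Mo/KC followed at 60.4 and 36.1 CPM, and EC exceeded it by 2.999 times (2.22 to 4.08). HSPC was at 2.13 CPM (1.16 to 3.57) and Mo/KC exceeded it by 21.9 times (12.3 to 42.1), at 34.7 times in library 1 and 14.1 times in library 2. No Maf UMI was found in 287 G cells, which leaves room for UMI-positive cells at up to 1.05%. Mo/KC was at least 58.9-fold higher than G over both libraries, and at least 38.1-fold and 22.8-fold higher with library 1 or library 2 alone. In EC, 5 of the 11 Mo/KC markers were at 0, including Csf1r, Fcgr1 and Adgre1, and Spi1 had 1 UMI. The 11 markers summed to 160 and 51.2 CPM in EC, against 3816 and 2443 CPM in Mo/KC. Maf in EC was at 137 CPM in the library with the higher marker sum and at 141 CPM in the other. The sum is not of macrophage RNA alone, as 1 of the 11 markers was highest in Hepa. The part of macrophage RNA in the Maf level of EC was not tested.

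**Figure D1:**
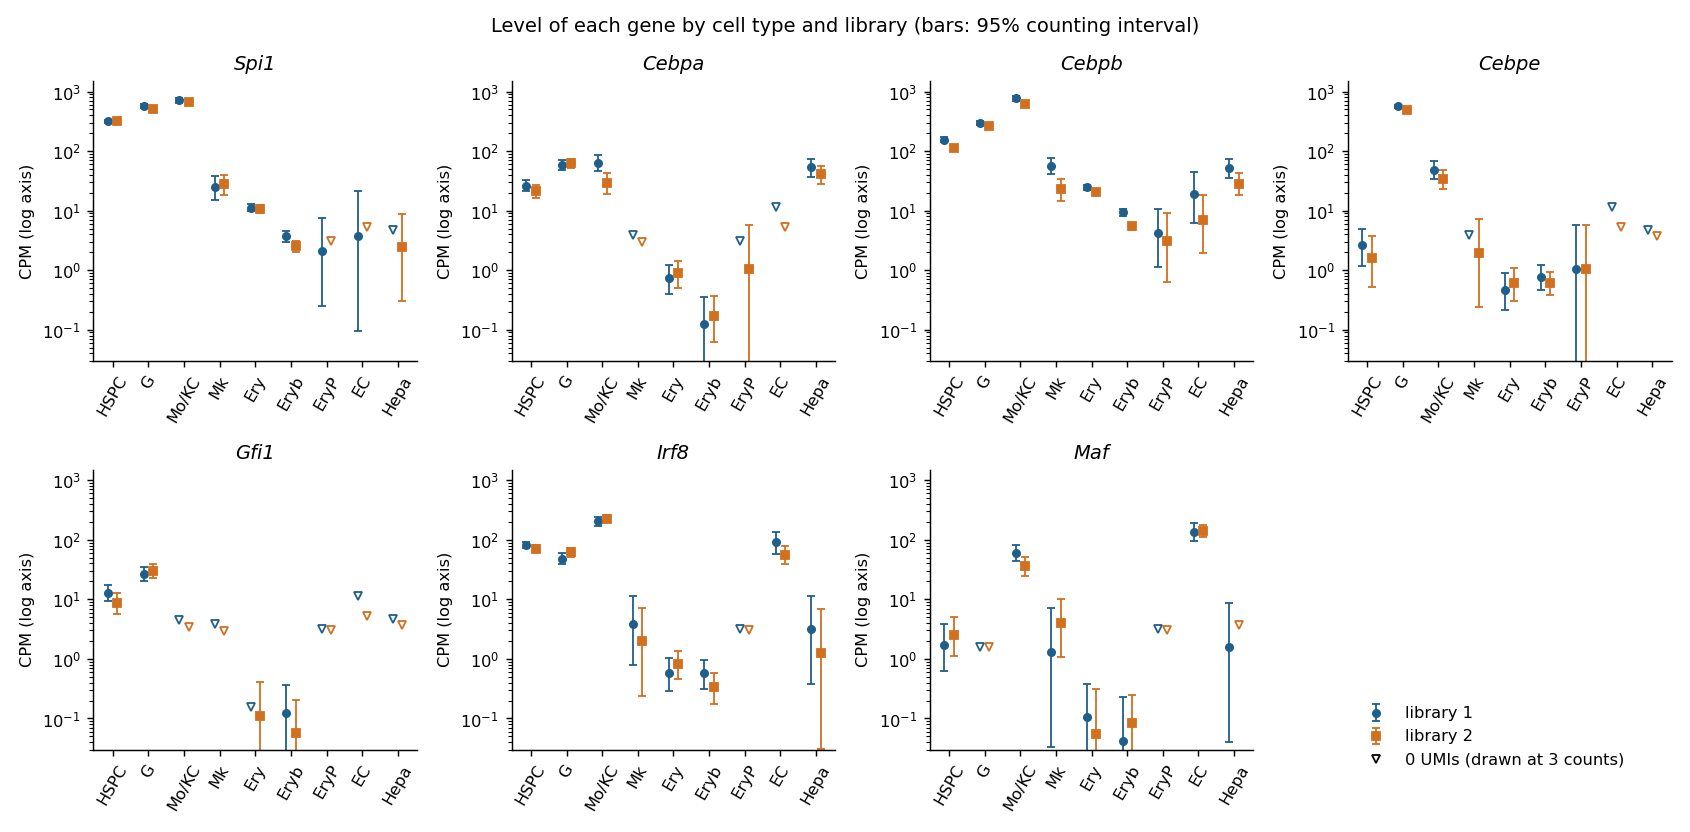
Level of each of the 7 factors (CPM, log axis) in the 9 cell types, with circles for library 1, squares for library 2 and bars for the 95% counting interval; open triangles mark 0 UMIs and are drawn at the limit of 3 counts. Spi1 and Cebpb are lowest in HSPC and highest in Mo/KC among these 3 types, Cebpe peaks in G at 524 CPM, Gfi1 has no UMI in Mo/KC, and Maf peaks in EC at 140 CPM.

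The 3 comparisons among HSPC, G and Mo/KC were then read across all genes with 1 fixed rule. A gene was counted as higher or lower if it had at least 20 UMIs in the pair of cell types and differed by at least 2-fold in the same direction in each library. From HSPC to G, 6 of the 7 factors had enough UMIs, all but Maf. Of these, 3 were higher in G, Cebpa, Cebpe and Gfi1, where 5.6% of 10325 genes were higher, and 0 were lower, where 8.65% of genes were. Cebpb was at 1.88 times in library 1 and 2.36 times in library 2 and missed the rule in library 1, and Spi1 was at 1.79 and 1.61 times. The calls of Cebpa and Gfi1 depended on the weighting of cells. When each cell counted equally, their ratios were 2.13 and 2.12 over both libraries, they no longer reached 2-fold in each library, and Cebpb did, at 2.19.

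From HSPC to Mo/KC, all 7 were measured, 5 were higher (Spi1, Cebpb, Cebpe, Irf8 and Maf), where 8.02% of 10067 genes were, and Gfi1 was lower, where 7.97% of genes were. The 10 G markers summed to 9917 CPM in Mo/KC, against 1378 CPM in HSPC and 62326 CPM in G. Whether granulocyte-like cells or doublets within Mo/KC carry the Cebpe call was not tested. Spi1 passed narrowly, at 2.23 times in library 1 and 2.098 times in library 2. Between the 2 branches, 3 of 7 were higher in Mo/KC than in G (Cebpb, Irf8 and Maf), where 6.16% of 8977 genes were. Cebpe and Gfi1 were lower, where 4.61% of genes were. Spi1 differed by only 1.25 times in library 1 and 1.30 times in library 2 between the branches. The median log2 ratio of the 7 factors was 1.05 for G over HSPC, 1.498 for Mo/KC over HSPC and 0.34 for Mo/KC over G, where a count of 0 entered at its limit, against -0.24, -0.19 and 0.02 for all genes measured. These 3 comparisons share their cells pairwise, and the factors were listed for their known part in these lineages.

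**Figure D2:**
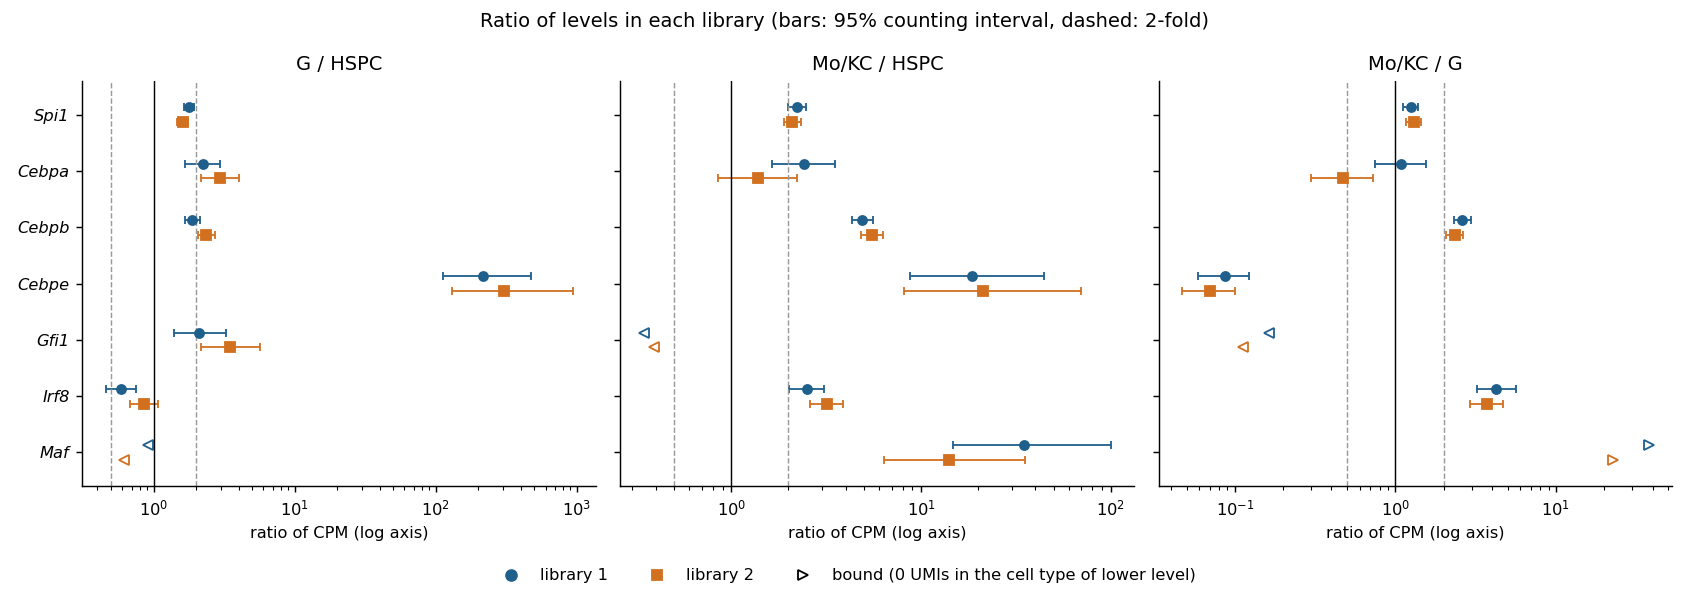
Ratio of CPM (log axis) of each factor for G over HSPC, Mo/KC over HSPC and Mo/KC over G, with circles for library 1, squares for library 2, bars for the 95% counting interval, open triangles for bounds where 1 cell type had 0 UMIs, and dashed lines at 2-fold. Cebpe is the farthest from 1 for G over HSPC (246 over both libraries). For Mo/KC over G, Gfi1 and Cebpe lie left of the line at 1, with Irf8, Cebpb and Maf to its right. Spi1 also lies to its right, by less than 2-fold, and Cebpa lies on both sides (1.09 and 0.472).

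Within G, the factors were set against early and late genes of granulocytes, whose products are made in a known order. G cells thinned to 3600 UMIs were sorted by whether they held at least 2 UMIs in sum of 4 early or of 5 late genes. The early genes were those of primary granules, Mpo, Elane, Prtn3 and Ctsg. The late genes were Ngp, Camp, Ltf, S100a8 and S100a9, of which S100a8 and S100a9 do not encode secondary granule proteins. This gave 106 cells with early genes only, 75 with both and 82 with late genes only, and 3 with neither. Cebpa was at 102 and 93.2 CPM in early cells, at 19.7 and 36.7 CPM in cells with both, and at 0 of 82 cells with late genes only, where 3 counts would be 4.89 CPM. Irf8 levels fell in the same order, from 76.1 and 91.2 CPM over 33.5 and 36.7 CPM to 1 UMI in the late cells of both libraries. Its middle values rested on few cells, with 17 UMIs in 4 of 31 cells and 22 UMIs in 3 of 44 cells. Of the 75 cells with both, 7 held Irf8 and 19 held Cebpa. These 2 factors were thus found in early cells, and the libraries did not differ in that order.

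Cebpe ran the other way. It was at 270 and 223 CPM in early cells, 698 and 761 CPM in cells with both and 1108 and 895 CPM in late cells, and late cells exceeded early cells by 4.14 times (3.67 to 4.67) over both libraries. Gfi1 was highest in the cells that held both early and late genes, at 49.3 and 70.1 CPM, against 21.9 and 11.7 CPM in early and 14.2 and 11.5 CPM in late cells. Cells with both exceeded early cells by 3.65 times (2.37 to 5.72) and late cells by 4.65 times (2.23 to 11.2). The Gfi1 level of late cells rests on 8 UMIs in 6 cells, of which library 2 gave 3 UMIs in 1 cell. Cebpb peaked in the same cells, at 432 and 332 CPM, against 236 and 237 CPM in early cells and 227 and 207 CPM in late cells. Spi1 changed least, from 487 CPM over 577 CPM to 638 CPM over both libraries, and in library 2 the late cells (540 CPM) were not above those with both (551 CPM). No class held Maf.

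The classes differ in depth and in other cells they may hold. The median depth was 19363 UMIs in early cells, 14197 in cells with both and 6235 in late cells. Cpa3, a mast cell and basophil protease, was at 229 CPM in early cells, 17.2 CPM in cells with both and 0 in late cells, and Gata2 followed it at 85.0, 6.33 and 3.26 CPM. The mast cell and basophil list (4 genes) summed to 175 and 120 CPM in G, with Cma1 at 0, and all 4 genes were at 0 in Mo/KC. Early cells were therefore also split by Cpa3 at 2 UMIs, a split chosen after the values had been seen. The 55 early cells with Cpa3 held Irf8 at 20.6 and 7.51 CPM, against 133 and 181 CPM in the 51 without. Cebpa was at 140 and 84.5 CPM with Cpa3 and 63.2 and 102 CPM without, so the libraries differed in its direction. Gfi1 was at 8.26 and 11.3 CPM with Cpa3 and 35.8 and 12.05 CPM without. In library 1 its interval without Cpa3 (20.9 to 57.3) overlapped that of cells with both early and late genes (31.9 to 72.8). In library 2 these intervals (4.42 to 26.2 and 50.5 to 94.8) did not overlap. The Irf8 of early G cells thus lay mostly in those without Cpa3, whereas Cebpa was found in both.

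**Figure D3:**
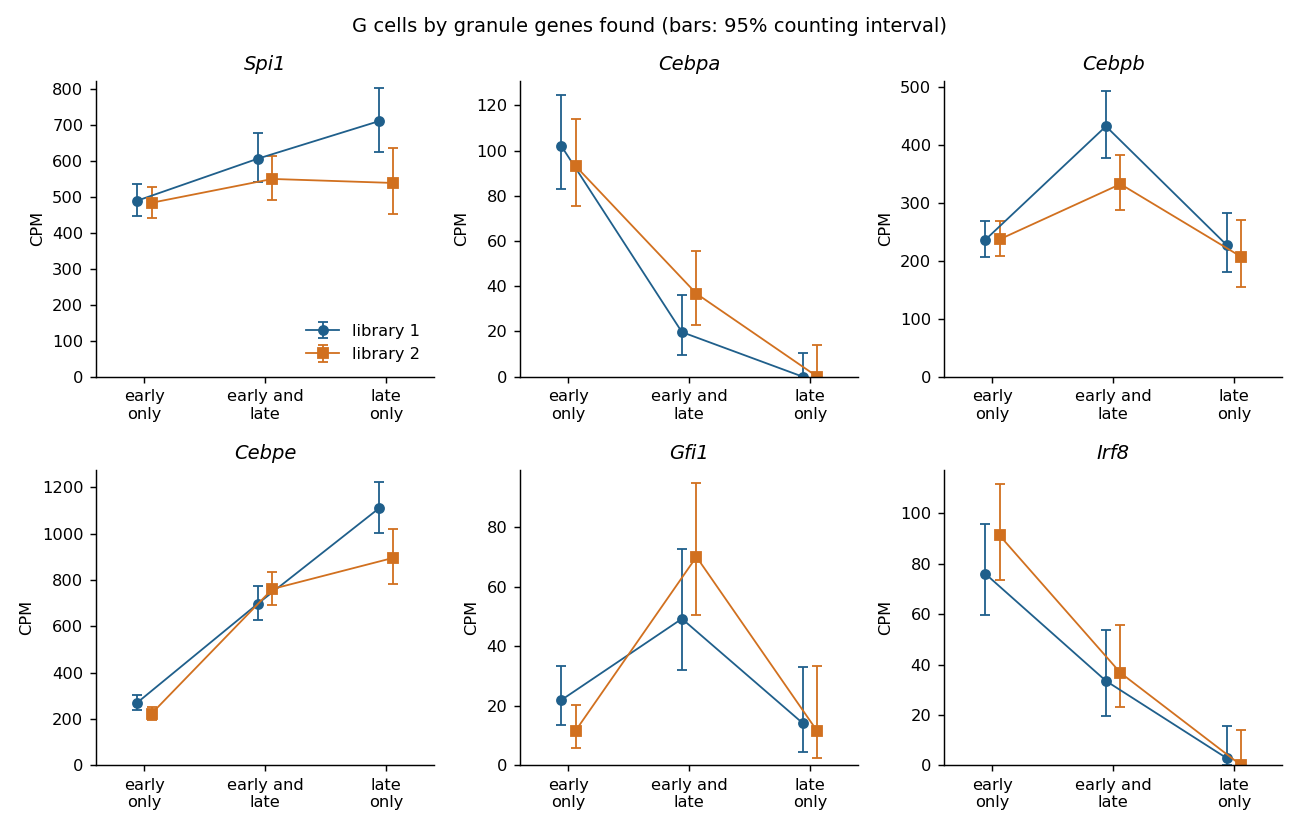
CPM of 6 factors in G cells with early granule genes only, with early and late genes and with late genes only, with circles for library 1, squares for library 2 and bars for the 95% counting interval. Cebpa and Irf8 are at 0 and 1 UMI in late cells, Cebpe is highest there at 1018 CPM over both libraries, and Gfi1 and Cebpb peak in cells that hold both.

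Mo/KC were divided in the same way by complement C1q, a product of tissue macrophages. Of the cells with at least 3600 UMIs, 34 held at least 2 UMIs in sum of the 3 C1q genes after thinning and 70 did not. The 70 cells carried Ly6c2 at 457 CPM and Mpo at 833 CPM, genes of monocytes and of granulocyte-monocyte precursors, and had no UMI of the macrophage genes Cd5l and Vcam1. The 34 cells had Ly6c2 at 2.39 CPM, Cd5l at 229 CPM and Vcam1 at 93.1 CPM. Ccr2, another of the Mo/KC markers, divided less sharply by level, at 22.6 and 124 CPM with C1q and 186 and 168 CPM without. The value of 124 CPM came from 30 UMIs in 4 of 19 cells. By cells, Ccr2 was found in 6 of the 34 with C1q and 53 of the 70 without. Maf was at 136 and 82.7 CPM with C1q and at 24.8 and 18.6 CPM without, which is 4.94 times (2.94 to 8.49) over both. Cebpe was found only without C1q, at 66.0 and 46.6 CPM from 62 UMIs in 28 of 70 cells, against 0 of 34 cells with C1q. Maf and Cebpe UMIs thus lay largely in different cells: of the 29 Mo/KC cells with Cebpe and the 38 with Maf, 2 held both.

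Irf8 was lower with C1q, at 90.3 CPM against 252 CPM in library 1 and 174 CPM against 247 CPM in library 2, a ratio of 0.556 (0.412 to 0.740) over both. Spi1 was at 0.783 times (0.675 to 0.906) with C1q, most of it from library 2, where the ratio was 0.664 against 0.948 in library 1. Cebpb did not differ beyond counting error, at 628 CPM with and 698 CPM without C1q (ratio 0.899, 0.779 to 1.04). Cebpa was at 113 CPM with C1q in library 1 and 16.6 CPM in library 2, against 47.5 and 34.2 CPM without, so the libraries pointed in opposite directions. The value of 113 CPM came from 20 UMIs in 8 of 15 cells, and 1 Mo/KC cell of library 1 held 12 Cebpa UMIs. In that library, 15 cells without C1q held 23 Cebpa UMIs in all, so the cell with 12 was one with C1q. The direction in library 1 was not recomputed without it. Gfi1 had 0 UMIs in either class.

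**Figure D4:**
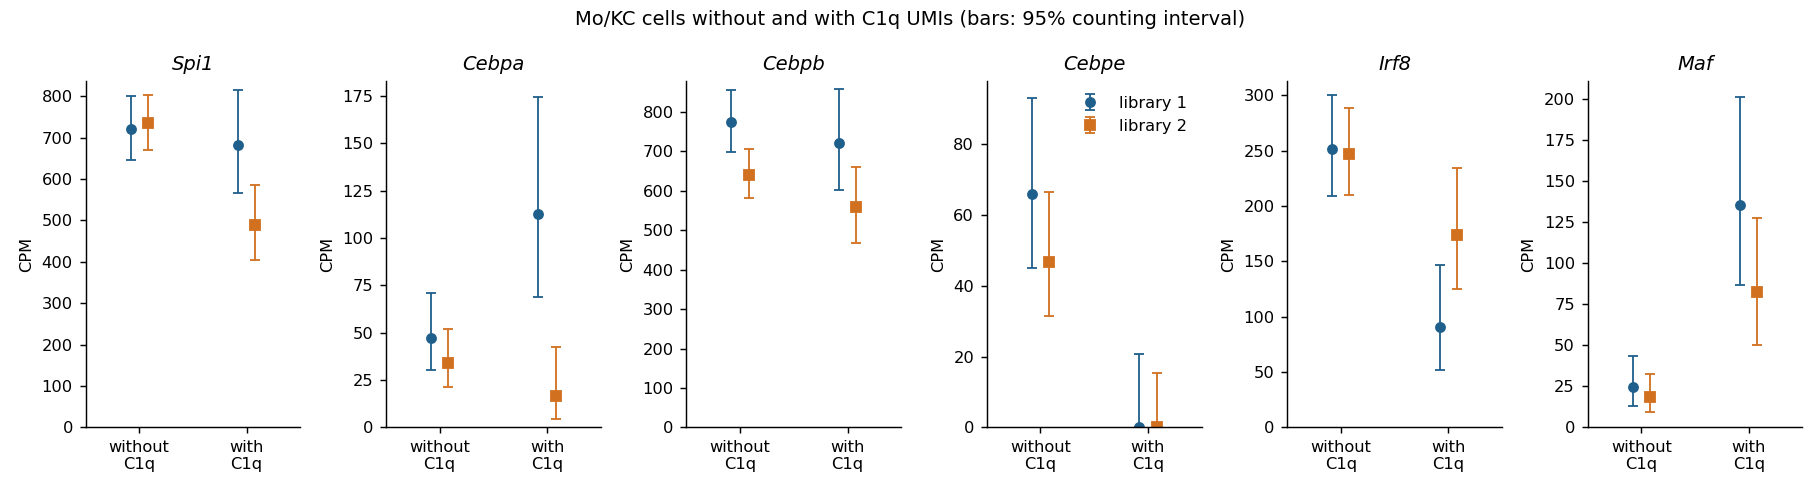
CPM of 6 factors in Mo/KC cells without and with C1q UMIs, with circles for library 1, squares for library 2 and bars for the 95% counting interval. Maf is higher with C1q in both libraries, Cebpe is at 0 with C1q, and the Cebpa values with C1q lie apart (113 and 16.6 CPM). The higher Cebpa value includes 12 UMIs of 1 cell.

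The erythroid branch was read along the subclusters of the deposited annotation, Ery 1 to Ery 6. Spi1 was at 319 CPM in HSPC and 17.2 CPM in Ery 1, 18.5 times lower (16.5 to 20.9), and at 4.19 CPM in Ery 2, a further 4.11 times lower (3.19 to 5.35). From Ery 3 to Ery 6, the subclusters of Eryb, it lay between 2.44 and 4.56 CPM. Spi1 exceeded free RNA at 10% in Ery 1 (330 UMIs, where 95.8 would be given). In Ery 2 (75 UMIs, 59.0 to 94.0, where 89.4 would be) and in later subclusters it did not, which holds for that assumed share only. Irf8 had 7 UMIs in Ery 2 (2.81 to 14.4), where 10% would give 26.6, and no lower share was tested. Cebpb differed by less, from 135 CPM in HSPC to 24.5, 21.0 and 14.9 CPM in Ery 1, Ery 2 and Ery 3, and 2.56 CPM in Ery 6. In library 2, Ery 1 was not separated from Ery 2 for Cebpb (ratio 1.07, 0.866 to 1.31). CPM is a share of all UMIs, and 4 erythroid markers, with the globin gene Hbb-bt among them, summed to 124900 CPM in Eryb against 10438 CPM in Ery. The subcluster levels were not recomputed without globin UMIs. Cebpb levels exceeded free RNA at 10% in Ery 1 to Ery 3 and not from Ery 4 on. HSPC exceeded Ery 1 by 5.52 times (4.93 to 6.19) for Cebpb and by 18.2 times (11.9 to 29.0) for Cebpa, which was at 1.31 CPM in Ery 1, above free RNA, and at 0.280 CPM in Ery 2, where it was not. Irf8 had 19 UMIs in Ery 1, where free RNA would give 28.6, and Gfi1 had 2 UMIs in 734 Ery 1 cells and none in Ery 2 and Ery 3. Of the 3 factors above free RNA at 10% in Ery 1, Cebpb thus differed least from HSPC.

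**Figure D5:**
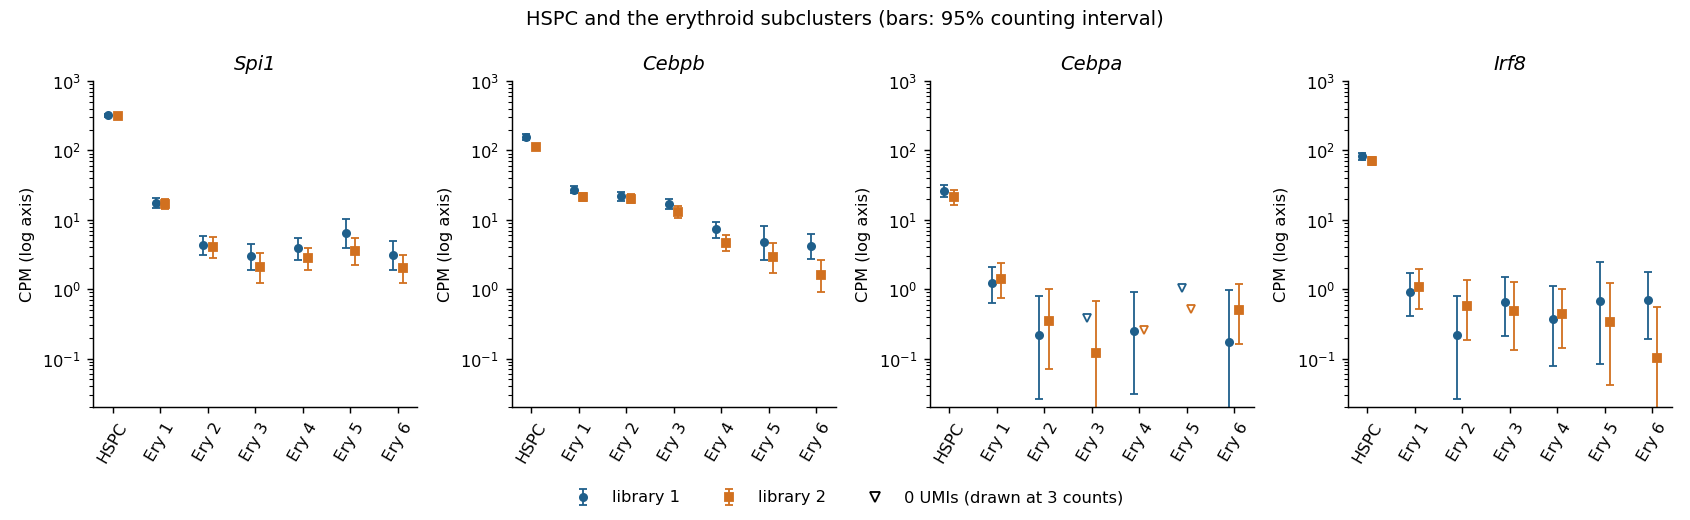
CPM (log axis) of Spi1, Cebpb, Cebpa and Irf8 in HSPC and in the erythroid subclusters Ery 1 to Ery 6, with circles for library 1, squares for library 2, bars for the 95% counting interval and open triangles for 0 UMIs at the limit of 3 counts. Over both libraries, Spi1 is at 319 CPM in HSPC and 17.2 CPM in Ery 1, and Cebpb is lower in each next subcluster, from 24.5 to 2.56 CPM of all UMIs, globin included.

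Factors were also counted in the same single cells, as a description set beside each factor's share of all cells of the type. Spi1 was found in 404 of 421 HSPC, so that nearly every HSPC with another factor held it too, including 93 of the 94 with Cebpa. Gfi1 and Irf8, which belong to opposite branches, shared 21 of 421 HSPC, and Irf8 was found in 36.2% of the HSPC with Gfi1 against 34.7% of all HSPC. In G they shared 6 cells, and Irf8 was found in 10.2% of the 59 cells with Gfi1 against 16.4% of all G. Cebpa was found in 38 of the 47 G cells with Irf8 (80.9%), against 34.5% of all G, and Cebpe in 57 of the 59 with Gfi1 (96.6%), against 79.4% of all G. The shares of all G mix the classes within G. Of the 106 early cells, 78 held Cebpa and 39 held Irf8, and 73 of the 75 cells with both early and late genes held Cebpe. Pairs were not counted within a class. In Mo/KC, Irf8 was found in 25 of the 29 cells with Cebpe (86.2%) and in 26 of the 38 with Maf (68.4%), against 72.8% of all Mo/KC. These counts depend on cell depth, and a cell without a UMI is not a cell without the RNA. At least 2 of the 7 factors were found in 345 of 421 HSPC, 277 of 287 G and 111 of 114 Mo/KC. The same held for 26 of 46 EC, 27 of 64 Hepa, 14 of 135 Mk, 135 of 1750 Ery, 22 of 7432 Eryb and 1 of 288 EryP cells. Cells with at least 2 factors were thus not confined to the myeloid types.

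Among 16 other listed regulators, 11 were measured in G and HSPC, of which 1 was higher in G (Gata1) and 2 were lower (Nr4a1 and Gfi1b), where 5.6% and 8.65% of all genes were. Gata1 was at 13.4 CPM in HSPC and 31.7 CPM in G, far below Mk (242 CPM), Ery (179 CPM) and Eryb (164 CPM). Within G it was at 45.7 CPM in early cells, 9.04 CPM in cells with both and 22.8 CPM in late cells. The part of free RNA in its G level was not tested. Of 15 measured in Mo/KC and HSPC, 8 were higher and 3 lower, where 8.02% and 7.97% of all genes were. Of 15 in Mo/KC and G, 10 were higher and 1, Gata2, lower, where 6.16% and 4.61% of all genes were. Irf5, an interferon regulatory factor of macrophages, was at 26.2 CPM in HSPC, 15.1 CPM in G and 252 CPM in Mo/KC. Among 28 receptors and targets of the factors, 15 of 18 measured were higher in G than in HSPC and 0 lower, beside the same shares of all genes (5.6% and 8.65%). In Mo/KC over HSPC, 19 of 25 were higher and 1 lower (8.02% and 7.97% of all genes), and in Mo/KC over G, 12 of 26 were higher and 10 lower (6.16% and 4.61%). Csf1r, the macrophage growth factor receptor and a target of PU.1, was at 22.2 CPM in HSPC, 26.1 CPM in G and 340 CPM in Mo/KC, whereas Csf3r, the granulocyte growth factor receptor, was at 32.6, 43.3 and 28.8 CPM. The median log2 ratios were -0.46, 1.23 and 1.45 for the regulators and 4.81, 6.19 and 0.81 for the receptors and targets, in the order G over HSPC, Mo/KC over HSPC and Mo/KC over G. The granule genes among the targets are also the markers of G, so their level in G is no independent evidence. The same holds in Mo/KC for Csf1r, Fcgr1, Adgre1, the C1q genes, Cd5l and Vcam1, which are on the list of Mo/KC markers. The counts and median ratios of the receptors and targets include these genes.

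The genes whose pattern was most like that of each factor were named by Pearson's r of log2(CPM + 1) over the 9 cell types in each of 2 libraries (18 values), among the 4207 genes whose highest level was 50 CPM or more in both libraries. The values come from 1 liver and the same cells, so they describe likeness alone. For Spi1 these were Myo1g (r 0.984), Traf3ip3 (0.983) and Fmnl1 (0.979), and for Cebpa they were Mgst2 (0.971), Adssl1 (0.925) and Ccl9 (0.924). Cebpb was most like Ly6e (0.960), Gsdmd (0.956) and Pak1 (0.945), and Cebpe most like Hsd11b1 (0.992), Cldn15 (0.983) and Mmp8 (0.976), the last a neutrophil collagenase. Gfi1 was most like Cpa3 (0.933), Hdc (0.910) and Ctsg (0.900), 3 genes of granulocytes and mast cells. That likeness is across cell types only. Within G, early cells had Cpa3 at 229 CPM and Gfi1 at 16.6 CPM. Cells with both early and late genes had them at 17.2 and 60.6 CPM. Irf8 was most like Cd34 (0.974), Emb (0.972) and Tmem173 (0.967), and Maf most like Dab2 (0.985), Cdh5 (0.965) and Dse (0.952), of which Cdh5 is an endothelial cadherin.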

How the data were processed

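The authors dissociated 1 E12.5 liver, sorted live single cells by FACS and, per the labels, made 10X Genomics libraries as 2 technical replicates. The UMI counts that the authors deposited, raw and filtered, are not normalized, and a separate table gives the type of each kept cell. The submitters' processing notes name bcl2fastq 2, Cell Ranger 2.1.1, Seurat 3.2.0 and mm10, whereas version 3.0.0 stands in the header of one matrix (library 1). Doublets were gated out before encapsulation and none were removed here. Depth was 51969226 UMIs (library 1) and 62738015 UMIs (library 2) in kept cells, which sets the precision of each interval.

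The members, lists and comparisons were chosen with earlier results of these data known. Cebpd was not analysed here. One gene of the regulator list is not reported here. UMIs were summed per cell type in each library and over both, with exact Poisson intervals for CPM, exact conditional intervals for ratios and exact Clopper-Pearson intervals for shares (95%), and 3 counts served as the limit where none was found. Thinned shares are means over all draws of 3600 UMIs, computed exactly, and their intervals take the nearest whole number of cells. Free RNA was read from barcodes outside the filtered matrices with 1 to 50 UMIs. No test was made, since there was 1 liver. The rule that calls genes and the intervals were tested on simulated data. The genes named are the members, the 3 genes most like each in pattern (names of the Gm or Rik form left out) and the fixed lists of regulators and of receptors and targets, of which at most the 3 highest and 3 lowest were named by ratio, together with genes that mark a cell type or class. Irf5, Csf1r and Csf3r and, inside G and Mo/KC, Cpa3, Gata2 and Mpo were chosen after their values had been seen. Alternatives were each library alone, a fold of 1.5 or 3, minima of 1 or 50 UMIs, pooled ratios, cell filters, removal of the deepest cells or of globin UMIs, equal weight per cell, subtraction of free RNA, other thinning and other class limits. The same alternatives were applied to the ratios after the data had been seen. Python 3.11.15, numpy 2.4.6, scipy 1.17.1, pandas 2.3.3 and matplotlib 3.10.9 were used.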

Additional observations from a re-analysis of the deposited data

Results flagged for a closer look

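Cebpe had a level in barcodes outside the kept cells of library 2 that was above free RNA. In the 3311 barcodes of that library with at least 1000 UMIs and 200 genes that lie outside the filtered matrix, Cebpe was at 24.8 CPM (24.78, from 167 UMIs), against 12.8 CPM in free RNA, a ratio of 1.94 (95% confidence interval 1.27 to 3.09). In library 1, 168 such barcodes held 0 Cebpe UMIs. These barcodes are not part of any comparison in the report.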

How the results depend on the processing

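No paired analysis was possible because both libraries come from 1 liver and the comparisons are between cell types within a library. With a fold of 3, 1 factor (Cebpe) was higher in G than in HSPC, 3 (Cebpb, Cebpe and Maf) were higher and 0 lower in Mo/KC than in HSPC. With a fold of 1.5, 5 were higher in G than in HSPC (Spi1 and Cebpb in addition). The other counts were within 1.5 times of the reported ones under each alternative, although the genes changed when cells were weighted equally, as given above for Cebpa, Cebpb and Gfi1. With each library alone, Cebpb in Hepa ranged from 28.4 to 51.5 CPM. Without library 1, Cebpa also counted as lower in Mo/KC than in G, and without library 2 as higher in Mo/KC than in HSPC. No ratio that counted as 2-fold changed direction. Of the ratios recomputed, a choice made after the data had been seen, 128 stayed within the reported interval and 12 did not, among them Cebpe in G over HSPC (628) and in Mo/KC over HSPC (46.8) after subtraction of free RNA. Both Cebpe ratios divide by the HSPC count, whose interval included the free RNA subtracted. Of the levels by cell type, 362 stayed within their interval and 79 did not, and of the shares of cells 72 did and 54 did not. Depth limits the values of EC, Hepa and Mo/KC most, since their totals are the smallest among the cell types discussed.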
